A study of Homo sapiens with 6 samples.

Results

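Of the autosomal genes that the study placed on its lists of high and of low expression in SiHa cells, 128 carry the names of spliceosome subunits, SR proteins, hnRNP proteins, RBM proteins or RNA helicases. They were chosen by name alone, as rows whose symbol starts with SF3A, SF3B, SRSF, HNRNP, PRPF, SNRP or U2AF, or with DDX, DHX, RBM or LSM followed by a digit. Both lists together hold 8360 autosomal symbols. Of the 128 genes, 124 stood on the high list, and 4 were low: DDX4, HNRNPCL1, SNRPN and DDX11L9. That is 96.9% on the high list (95% exact binomial interval 92.2 to 99.1), against 52.4% of all autosomal symbols listed. This interval treats genes as independent draws and describes no spread between libraries.

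The spliceosome removes introns from pre-mRNA. It is built from small nuclear ribonucleoproteins, whose RNAs sit in rings of Sm or LSm proteins, and from protein complexes that join and leave during each round of splicing. DEAD-box (DDX) and DEAH-box (DHX) helicases use ATP to remodel RNA, in splicing and also in ribosome assembly, export, decay and antiviral sensing. SR proteins and hnRNPs bind exons and introns and shift the choice of splice sites, and most of these genes are expressed in nearly all dividing cells, while a few paralogs belong to germ cells, muscle or neurons.

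SiHa is an established line from a squamous carcinoma of the cervix. Transwell plates with 6 wells were seeded with these cells, and 10 hours later the fraction that had crossed the membrane (migrated) and the fraction that had not (non-migrated) were scraped and pooled separately. Each fraction gave 3 RNA-seq libraries in replicate sets, with no agent and no genetic change named, and the labels do not tell whether a set is a separate culture. Assigned fragments per library ranged from 18226280 to 33466924 for non-migrated cells and from 23166447 to 25662866 for migrated cells. The expression table names its 26006 loci by assembly IDs alone, so none of the 128 genes could be given a value per library, and the difference between migrated and non-migrated cells was not analysed here for any of them. What the files give for each gene is its list and its hg19 position. The sources used here do not say how the lists were selected or from which libraries. Of 8 epithelial markers, KRT7, KRT8, KRT17 and KRT18 were high and 0 were low. EPCAM, CDH1, TP63 and KRT19 stood on neither. Of 13 markers of leukocytes, endothelium, fibroblasts and red cells, 0 were high and 7 low, including PTPRC and HBB.

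A count over listed genes leaves out those on neither list, so each name class was also counted over autosomal protein coding genes in RefSeq. A gene was counted if its RefSeq symbol, or the older symbol it was listed under, had the name. A renamed gene on neither list was therefore missed. PRPF4B (now PRP4K), on the high list, was counted, while DDX58 (now RIGI), on neither list, was not. Older symbols on the lists were read together with the chromosome. HNRPDL and HNRPLL are the former names of HNRNPDL and HNRNPLL, and NAA38 on chromosome 7 is LSM8. Of 174 such genes, 126 were high (72.4%, 95% exact binomial interval 65.1 to 78.9), 3 low (1.72%) and 45 on neither list (25.9%). Over all 19126 autosomal coding genes in RefSeq, 22.7% were high, 18.0% low and 59.2% on neither list.

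**Figure D1:**
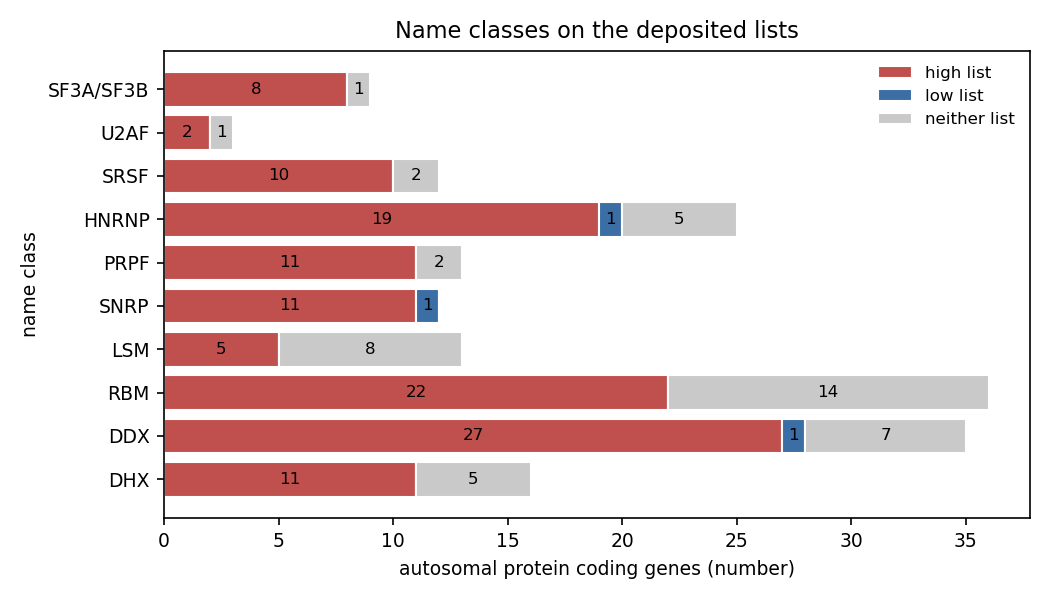
Number of autosomal protein coding genes of each name class (x axis) on the high list, the low list or neither list (colours). LSM is the class with more genes on neither list (8) than on the high list (5), and the only low-list genes are 1 each of HNRNP, SNRP and DDX. Over all coding genes 59.2% were on neither list and 22.7% on the high list.

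The core particles were almost wholly on the high list. SNRP genes encode Sm proteins and the proteins specific to U1 and U2, and 11 of 12 were high. Among them were SNRPB, SNRPD1, SNRPD2, SNRPD3, SNRPE, SNRPF and SNRPG, which together form the Sm ring around U1, U2, U4 and U5 RNAs. All 7 ring subunits were thus high, as were SNRPA and SNRPC of U1 and SNRPA1 and SNRPB2 of U2. The exception was SNRPN, a tissue-specific copy of SNRPB described further on. SF3A and SF3B form the part of the U2 particle that grips the branch point, and 8 of 9 genes were high, including SF3B1 (hg19 chromosome 2, 198256698 to 198299815). SF3B6, the branch point contact subunit, was on neither list under its present or its former symbol. U2AF1 and U2AF2, which read the 3-prime splice site, were both high, and U2AF1L4, a paralog of U2AF1, was on neither.

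PRPF genes encode proteins of the tri-snRNP and of later complexes, and 11 of 13 were high. They included PRPF8 (chromosome 17, 1553923 to 1588154), the scaffold of the catalytic centre, with its tri-snRNP partners PRPF3, PRPF4, PRPF6 and PRPF31. PRPF19, a ubiquitin ligase that joins at activation, was also high. PRPF18, a factor of the second step, and PRPF40B were on neither list.

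The LSm proteins stood apart from the Sm proteins by their counts. LSM2 to LSM8 form the ring of U6 RNA, LSM1 replaces LSM8 in the ring that serves mRNA decay, and LSM10 and LSM11 belong to the U7 particle of histone mRNA processing. Of these 10 genes, LSM3, LSM4 and LSM8 were high and the other 7 on neither list. That share was 30.0% (95% exact binomial interval 6.67 to 65.2), against 91.7% (61.5 to 99.8) of the 12 SNRP genes, and both rest on few genes. The intervals overlap slightly, which does not decide whether the shares differ, and the difference was not tested. The interval of the 10 LSm genes also holds the 22.7% of all coding genes on the high list. LSM14A and LSM14B, regulators of mRNA translation and storage, were high, and LSM12 was on neither. The LSM genes on neither list had principal transcripts with a median of 1702 bases (8 genes, 529 to 6584) in GENCODE, and those on the high list 2548 bases (5 genes, 1305 to 3815). The high SNRP genes had a median of 1154 bases (11 genes, 625 to 4909), so short transcripts occurred in both places. Whether length had a part in the placement was not tested.

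**Figure D2:**
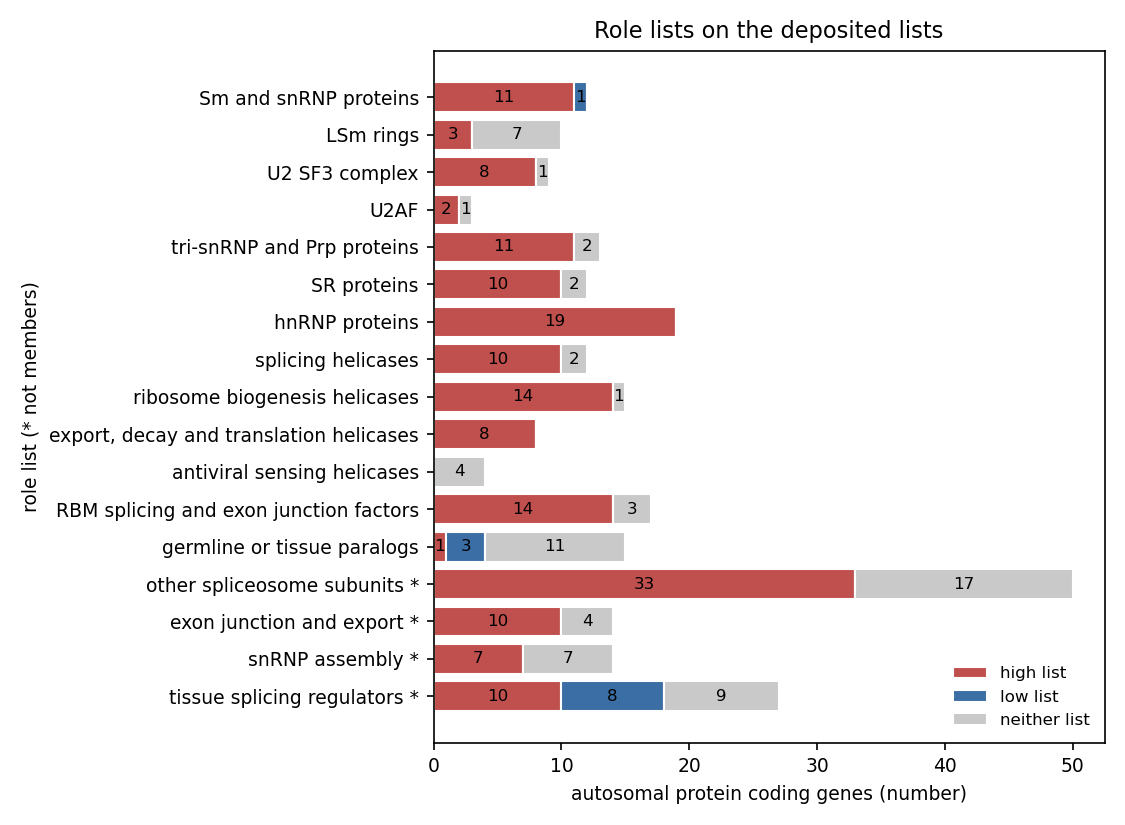
Number of autosomal protein coding genes of each role list (x axis) on the high, low or neither list (colours), with an asterisk for lists of genes outside the name rule. The 19 genes of the hnRNP role list are high, but that list leaves out the other coding HNRNP genes (25 in all). The 8 helicases listed for export, decay and translation, which leave out DHX34, are high, and the 4 antiviral helicases are on neither list. Of the 27 tissue splicing regulators 8 are low, beside 18.0% of all coding genes.

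SR proteins promote exon inclusion through domains rich in arginine and serine. Of 12 SRSF genes, 10 were high, namely SRSF1 to SRSF7 and SRSF9 to SRSF11, and none was low. SRSF8, which arose as a copy of SRSF2, and SRSF12, a relative of SRSF10, were on neither list. Of 25 coding genes named HNRNP, 19 were high (76.0%), including HNRNPA1, HNRNPC, HNRNPK, HNRNPM and HNRNPU, counting HNRNPDL and HNRNPLL under their older names. The hnRNP role list holds these 19 genes alone. Since it was drawn up with earlier results known, its full share on the high list is no separate result. The other 6 coding genes named HNRNP are copies of HNRNPA1 or HNRNPC. HNRNPCL1 was low and HNRNPCL2, HNRNPCL3, HNRNPCL4, HNRNPA1L2 and HNRNPA1L3 were on neither list. Fragments of such near-identical copies can be assigned to either copy, and the sources used here do not state the counting rule. HNRNPU-AS1 was on the high list too. Its listed span lies on the minus strand like that of HNRNPU and overlaps it by 4332 bases, so fragments of both could not be told apart there.

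RBM is the widest class, with 22 of 36 coding genes high, 14 on neither list and 0 low. The 22 include the readthrough RBM14-RBM4, which overlaps RBM14 by 10722 and RBM4 by 7853 bases on the same strand. Fragments there could not be told apart, so these are not separate high genes. The 14 include the readthrough RBM27-POU4F3. Of the 17 RBM genes on the role list for splicing and exon junction factors, 14 were high. These included RBM8A of the exon junction complex, RBM22 of the activated spliceosome, RBM17, RBM25 and RBM39. The share depends on how genes were sorted, as the list also holds RNA-binding proteins of other processes, such as RBM15. RBM11, RBM20, RBM24 and RBM38 were counted with the germline and tissue paralogs instead, and were on neither list. RBM15, an adaptor of the m6A methyltransferase, was on neither list, and so were RBM4B and RBM48. RBM47, a splicing and editing cofactor of epithelia, was the only gene of the germline or tissue list on the high list.

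Helicases were counted by the process they serve. Of 12 splicing helicases, 10 were high. DDX46 loads U2, DDX23 releases U1, DHX16 and DHX38 drive the catalytic steps, and DHX15 takes the spent complex apart. DDX39B, which also works in mRNA export, and DDX5 and DDX17, which act on RNA structure around splice sites, were high as well. DHX8, which releases the spliced mRNA, and DHX35 were on neither list. Ribosome assembly helicases gave 14 of 15 high, among them DDX21, DDX10, DDX18 and DHX37, with DDX51 on neither. The 8 helicases on the list for export, decay and translation were high, including DDX6 of mRNA storage and decay, DDX19A and DDX19B at the nuclear pore, and DHX36, which unwinds G-quadruplexes. These role lists do not hold every helicase of the name classes. DHX34, a helicase of nonsense-mediated decay, and DDX50, the paralog of DDX21, were left off them and stood on neither list. The 4 antiviral helicases RIG-I (DDX58), LGP2 (DHX58), DDX60 and DDX60L, all interferon-induced, were on neither list. With so few genes the interval of their high share, 0 to 60.2% (95% exact binomial), holds the 22.7% of all coding genes.

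Of 15 germline and tissue paralogs, 3 were low, 1 high and 11 on neither list, a low share near the 18.0% of all coding genes. DDX4 (VASA), the helicase of germ cell granules, was low (chromosome 5, 55033845 to 55112985, plus strand). The other germline helicases DDX25 and DDX43 were on neither list, as were the germ cell genes RBM44 and RBM46 and the muscle genes RBM20 and RBM24. HNRNPCL1 (chromosome 1, 12907261 to 12908578, minus strand) was low. SNRPN, best known from neurons and expressed from the paternal allele alone, was low (chromosome 15, 25068794 to 25223870, plus strand). The remaining low gene was DDX11L9 (chromosome 15, 102516761 to 102519296, minus strand), a pseudogene near the chromosome end with no helicase function. RefSeq names 256 autosomal pseudogenes with the same name stems, and DDX11L9 was the 1 of them on a list, with the other 6 DDX11L copies on neither. The share of all autosomal pseudogenes on the lists was not counted, and 7805 of the 8360 autosomal symbols listed were protein coding. The count therefore cannot be read as a trait of these names. The files do not tell whether a gene on neither list had an intermediate level, was missing from the annotation or was filtered out.

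**Figure D3:**
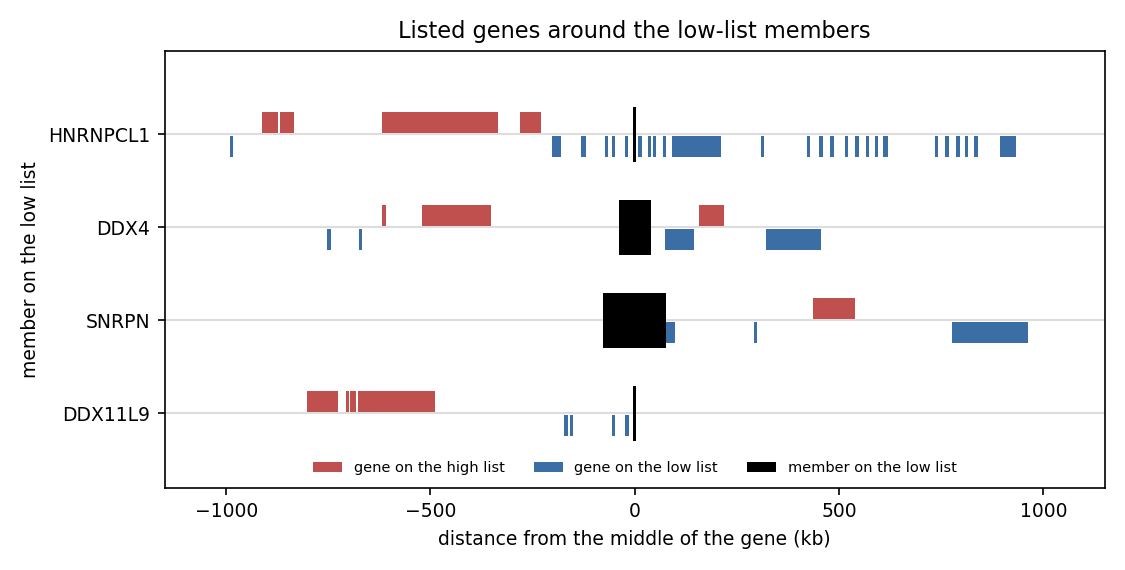
Genes on the high list (red, upper row) and low list (blue, lower row) within 1000 kb of each of the 4 low-list members (black), by distance in kb from the middle of the member. Small genes are drawn 8 kb wide, and SNURF is partly hidden behind SNRPN. HNRNPCL1 has 28 low and 4 high neighbours, the others 3 or 4 low and 1 to 4 high.

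The nearest listed gene of each of the 4 low genes was itself on the low list, as it was for 71.0% of all low-list and 23.7% of all high-list genes. Among the 124 high genes it was on the low list for 23 (18.5%). Within 1000 kb, HNRNPCL1 had 28 low and 4 high neighbours, and 22 of the low ones were PRAMEF genes, a cluster of testis-expressed genes. DDX4 had 4 low and 4 high neighbours. The closest was the cytokine receptor gene IL31RA at 34.2 kb, on the low list, followed by the cytokine receptor gene IL6ST at 117.9 kb, on the high list. DHX29, a helicase of translation initiation, lay at -430.3 kb, on the other side, and was high. SNRPN overlapped SNURF, its bicistronic partner, by 23736 bases, and both were low. SNHG14, the long RNA of the same imprinted domain, was low, and UBE3A, the ubiquitin ligase at 358.5 kb, was high. DDX11L9 was flanked by FAM138E and 3 olfactory receptor genes of the OR4F family, all low, while SNRPA1, a U2 protein at -681.3 kb, was high.

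High genes also had listed neighbours that share their start region. In 8 pairs with a member, both genes on the high list pointed away from each other with starts at most 1000 bases apart, which is 6.45% of the 124 genes against 4.63% of all high-list and 0.879% of all low-list genes. HNRNPA1 (chromosome 12, 54673977 to 54680871) started 22 bases from CBX5, and HNRNPA2B1 (chromosome 7, 26229547 to 26240366) started 416 bases from CBX3. CBX5 and CBX3 encode HP1 proteins, which bind methylated H3K9, the mark written by SUV39H1 in the series title. That mark was not examined here, and a relation of it to these pairs was not tested. The other pairs were PRPF38A with ORC1, SRSF9 with DYNLL1, SF3B3 with COG4, DDX42 with CCDC47, DDX49 with COPE, and DHX29 with SKIV2L2, itself an RNA helicase. Members overlapped another listed gene in 18 pairs, 12 of them on opposite strands. Of the 124 high genes 14.5% overlapped a listed gene, against 11.2% of all high-list and 11.8% of all low-list genes. PRPF6 lay wholly within the listed span of ZNF512B and DDX27 within that of ZNFX1, each on the other strand, and without a known strand setting fragments there could belong to either gene.

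The 124 high genes were compact. Their listed spans had a median of 21336 bases (95% order-statistic interval 16389 to 28306), against 33600 for the 4381 high-list genes and 11271 for the 3980 low-list genes. The shortest were SF3B5 with 737 bases, DDX28, a mitochondrial helicase, with 2592, and HNRNPA0 with 2965. The longest were DDX10 with 275906, RBM47 with 207621 and RBM19 with 149630. SRSF genes had the smallest class median, at 8596 bases (10 genes, 3293 to 47371), and DHX genes the largest, at 47287 (11 genes, 19197 to 60100). The 4 low genes ranged from 1318 bases for HNRNPCL1 to 155077 for SNRPN.

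Promoter sequence was a property that the name rule did not use. The RefSeq table (GRCh38.p14) gives 250 bases before and 50 after a start, and 101 of the 124 high genes and 1 of the 4 low genes had a window at the gene's outermost start. The following windows are shown, with each CG dinucleotide in capitals, because CpG content differed between the lists as a whole. DDX17 (chr22:38506262-38506561, minus) had the highest and HNRNPH1 (chr5:179634735-179635034, minus) the lowest CpG ratio among high genes of the role lists, and HNRNPCL1 (chr1:12848671-12848970, minus) was the low gene with a window. HNRNPA2B1 (chr7:26200697-26200996, minus) and the SNURF start inside SNRPN (chr15:24954737-24955036, plus) were added after their values were seen.
DDX17: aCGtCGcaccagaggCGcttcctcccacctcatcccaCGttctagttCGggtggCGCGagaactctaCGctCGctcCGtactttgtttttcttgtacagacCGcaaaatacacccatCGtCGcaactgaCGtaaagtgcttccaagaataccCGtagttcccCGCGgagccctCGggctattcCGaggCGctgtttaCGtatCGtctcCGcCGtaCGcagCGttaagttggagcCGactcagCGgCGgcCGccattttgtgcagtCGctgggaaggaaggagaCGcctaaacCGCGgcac
HNRNPH1: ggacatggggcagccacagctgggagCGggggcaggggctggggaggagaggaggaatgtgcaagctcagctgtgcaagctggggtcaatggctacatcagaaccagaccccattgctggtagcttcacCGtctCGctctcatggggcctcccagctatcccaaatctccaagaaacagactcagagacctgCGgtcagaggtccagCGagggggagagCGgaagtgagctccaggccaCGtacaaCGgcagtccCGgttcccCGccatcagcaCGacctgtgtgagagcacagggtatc
HNRNPCL1: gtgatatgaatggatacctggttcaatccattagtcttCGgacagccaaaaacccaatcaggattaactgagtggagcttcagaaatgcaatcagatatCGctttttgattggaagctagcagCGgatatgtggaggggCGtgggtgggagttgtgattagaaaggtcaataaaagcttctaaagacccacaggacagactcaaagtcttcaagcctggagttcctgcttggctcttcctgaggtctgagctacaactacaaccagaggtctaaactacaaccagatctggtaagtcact
HNRNPA2B1: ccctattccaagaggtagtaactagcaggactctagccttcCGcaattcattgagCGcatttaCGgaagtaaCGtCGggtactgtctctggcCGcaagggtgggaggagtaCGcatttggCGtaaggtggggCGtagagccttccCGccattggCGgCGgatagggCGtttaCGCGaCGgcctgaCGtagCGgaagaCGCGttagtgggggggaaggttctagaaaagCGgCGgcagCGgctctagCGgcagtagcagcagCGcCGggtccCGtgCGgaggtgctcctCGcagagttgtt
SNURF: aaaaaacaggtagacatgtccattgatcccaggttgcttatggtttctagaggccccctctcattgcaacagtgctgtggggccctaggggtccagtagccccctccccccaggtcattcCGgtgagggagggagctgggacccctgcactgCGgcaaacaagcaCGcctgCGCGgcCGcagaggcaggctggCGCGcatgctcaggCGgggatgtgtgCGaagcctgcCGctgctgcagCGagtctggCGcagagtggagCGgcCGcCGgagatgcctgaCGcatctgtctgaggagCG

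The CpG ratio is the observed number of CG dinucleotides over that expected from C and G content, and bulk genomic sequence lies well below islands. The high genes had a median ratio of 0.934 (101 genes, 0.389 to 1.35), against 0.887 for all high-list genes (n = 3312) and 0.277 for all low-list genes (n = 2532). A ratio of at least 0.6 was met by 98 of the 101 (97.0%), by 91.4% of high-list, 25.0% of low-list and 48.5% of all 24886 windows at gene starts. DDX17 had 34 CG dinucleotides and a ratio of 1.35, HNRNPA2B1 29 and 1.11. HNRNPCL1 had 4 and a ratio of 0.262, close to the median of the low list. HNRNPH1 had 11 and a ratio of 0.389 at its outermost start, while its starts 10184, 11113 and 11383 bases further in gave 0.449, 1.09 and 1.02. RBM27 (0.399) and SNRPD3 (0.538) were the other high genes below 0.6. Genes of the name classes on neither list had a median of 0.825 (33 genes, 0.316 to 1.28). Those below 0.6 were SRSF8, HNRNPCL2, HNRNPCL4, LSM12 and the readthrough RBM27-POU4F3. This readthrough had the same ratio (0.399), GC content and number of CG dinucleotides (10) as RBM27, so it is no separate case. RBM14 and the readthrough RBM14-RBM4 likewise had equal values (0.850), and both are counted among the 101. For SNRPN and DDX4 the windows lay inside the gene. The SNURF window, the known imprinted island, had a ratio of 0.583 and lies 131350 bases into SNRPN, while a window 28824 bases into DDX4 had 0.120.

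**Figure D4:**
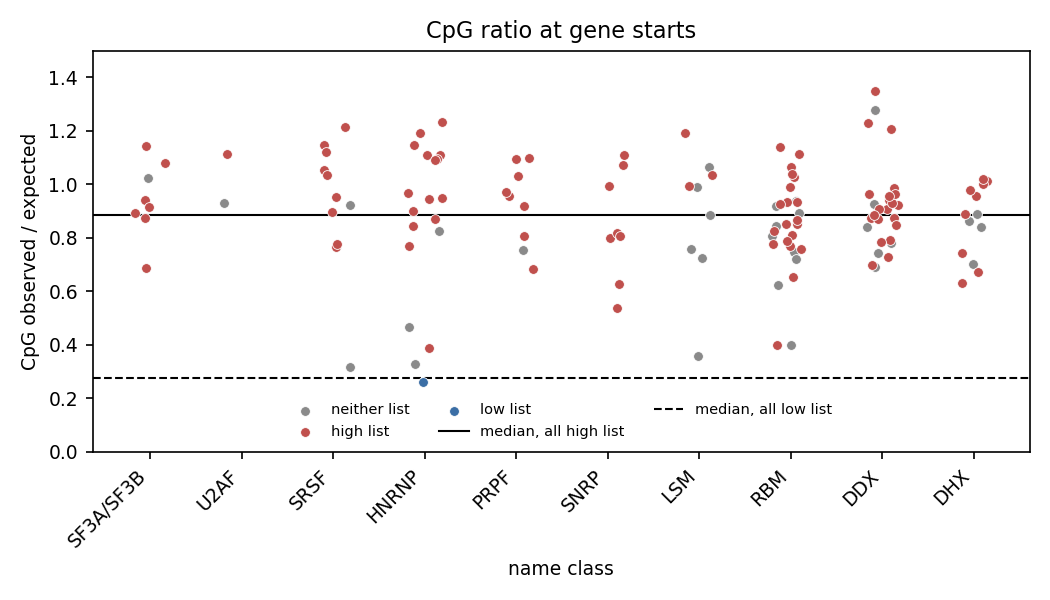
CpG observed over expected (y axis) in the window at the gene start, 1 point per gene by name class (x axis), coloured by list, with a small sideways jitter. Red points lie mostly around the solid line, the median of all high-list genes (0.887), and HNRNPCL1 lies near the dashed line, the median of all low-list genes (0.277).

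Short motifs were counted in the same windows on both strands. The ETS core CCGGAAG was in 36 of the 101 high genes (35.6%), against 23.9% of all high-list, 3.32% of low-list and 10.7% of all windows. By class it was in 5 of 7 SF3A/SF3B, 5 of 8 SNRP, 9 of 21 DDX and 5 of 9 DHX genes, but in 1 of 15 HNRNP genes. The rest were 6 of 20 RBM, 2 of 8 PRPF, 2 of 9 SRSF, 0 of 3 LSM and 1 of 1 U2AF genes. CCAAT was in 50 of 101 (49.5%), against 38.4% of high-list, 38.0% of low-list and 36.1% of all windows. By class it was in 6 of 8 PRPF, 10 of 15 HNRNP, 6 of 9 DHX and 12 of 20 RBM genes. SRSF had it in 1 of 9 and SF3A/SF3B in 1 of 7. The remaining classes gave 4 of 8 SNRP, 8 of 21 DDX, 2 of 3 LSM and 0 of 1 U2AF genes. The GC box GGGCGG was in 59 (58.4%), against 74.5% of high-list, 28.5% of low-list and 43.9% of all windows. CTCGCGAG was in 6 (5.94%, against 3.35% of high-list and 1.06% of all windows), namely HNRNPK, HNRNPUL1, LSM3, RBM26, SRSF4 and SRSF10. CGCATGCG, the core of the NRF1 motif, was in 7 (6.93%, against 4.92% of high-list and 2.22% of all windows), among them DDX10, DDX11, DDX27, DDX41 and DHX9. TATAAA was in 8 (7.92%), above the 5.49% of high-list windows and below the 22.1% of low-list and 12.2% of all windows, and it was in 0 of 33 windows of name-class genes on neither list. HNRNPAB, HNRNPC and HNRNPD were 3 of the 8. The 33 windows on neither list held CTCGCGAG in 0, CGCATGCG in 2 (6.06%) and CCGGAAG in 8 (24.2%). CCAAT was in 14 of them (42.4%) and GGGCGG in 24 (72.7%). Part of these motifs hold CG and so share composition with the CpG ratio. A match is a run of letters, not a bound site.

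Many splicing regulators limit their own protein by splicing to transcripts that nonsense-mediated decay removes. GENCODE v29 (GRCh38) annotates such a decay transcript for all 10 SRSF genes on the high list, with 1 to 6 per gene and the most for SRSF7. Both SRSF genes on neither list, SRSF8 and SRSF12, have at least 1 as well. Across the name classes 73 of 126 high genes had one (57.9%), against 49.99% of all 4349 coding genes on the high list, 35.8% of those on neither and 19.4% on the low list. The share was 13 of 19 for HNRNP and 19 of 27 for DDX, but 3 of 11 for PRPF, 4 of 11 for SNRP and 3 of 8 for SF3A/SF3B. Outside the high list it was 5 of 5 for DHX and 2 of 13 for RBM genes. RBM39 had the most, with 15 among 45 transcripts, followed by HNRNPU with 9 of 31 and DDX11 with 8 of 30. Transcripts with a retained intron were annotated for 91 of 126 (72.2%) and for 25 of 27 DDX genes, against 70.2% of all high-list coding genes. These are annotations and not measurements in SiHa cells, and a gene with more annotated transcripts has more chances to hold one. The high genes of the classes had a median of 9 transcripts, those on neither list 5.5, and all high-list coding genes 9. The part of transcript number in the shares was not tested.

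**Figure D5:**
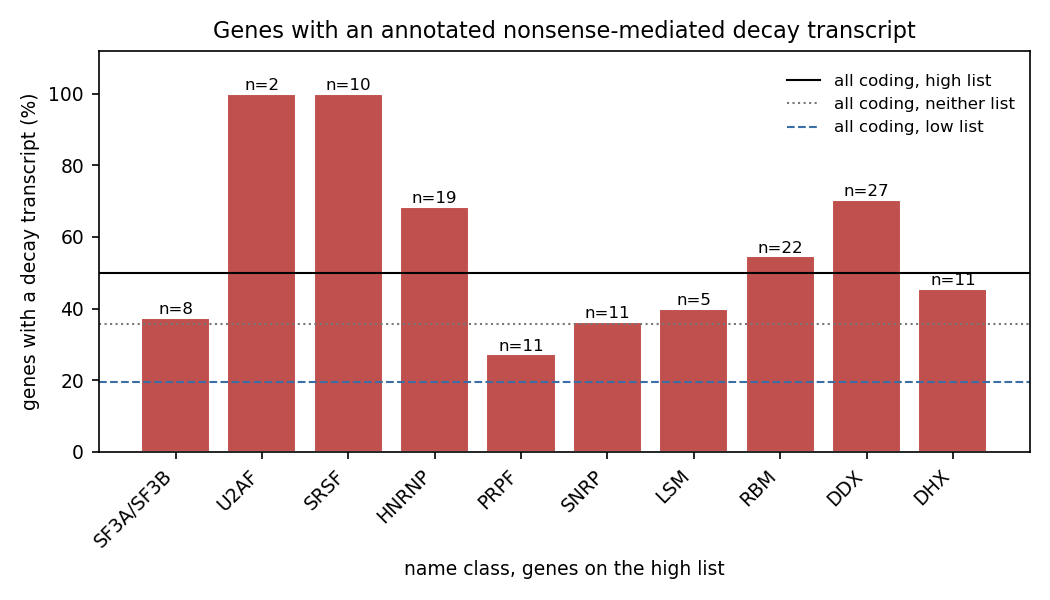
Share of genes (%, y axis) with at least 1 annotated nonsense-mediated decay transcript, for genes of each name class on the high list (x axis, n above each bar), with lines for all coding genes on the high, neither and low lists. U2AF and SRSF reach 100%, while PRPF, at 27.3%, lies under the line for genes on neither list (35.8%).

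Other genes of the pathway were counted from role lists. Over all coding genes 22.7% were high, 18.0% low and 59.2% on neither list. Of 50 further spliceosome subunits 33 were high (66.0%), 0 low and 17 on neither list. High were SNRNP200, which unwinds U4 from U6, its partner EFTUD2, SNRNP70 of U1, and CDC5L and AQR of the activated complex, while TXNL4A, USP39 and CDC40 were on neither. The exon junction and export list gave 10 of 14 high, with EIF4A3, itself a DEAD-box protein, UPF1 and NXF1, and MAGOH on neither. The snRNP assembly list gave 7 of 14 high, including GEMIN4, GEMIN5 and PRMT5. SMN1 and SMN2, which are near-identical copies, were on neither list. Tissue splicing regulators were split, with 10 of 27 high, 8 low and 9 on neither. The high ones included PTBP1, RBFOX2, MBNL1, QKI, ELAVL1 and the epithelial regulator ESRP2. The low ones were NOVA1, NOVA2, RBFOX1, ELAVL3, ELAVL4, SRRM4, CELF2 and KHDRBS2, most of them known from neurons. Paralogs fell on opposite lists in 4 families, with RBFOX2, ELAVL1, CELF1 and KHDRBS1 high and RBFOX1, ELAVL3 and ELAVL4, CELF2 and KHDRBS2 low. These families were named after their values were seen, and their members RBFOX3, ELAVL2, CELF3, CELF4, CELF5, CELF6 and KHDRBS3 were on neither list. Other families did not split, with MBNL1 and MBNL2 both high, NOVA1 and NOVA2 both low, and PTBP1 and PTBP3 high with PTBP2 on neither.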

How the data were processed

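Per the file headers, both deposited lists hold gene symbols with chromosome, start, end and strand, and a value column that is empty in every row. Per the submitters' processing notes the tools were CASAVA 1.8.2, TopHat2, Cufflinks 2.2.1 and Cuffdiff with build hg19, while strand setting and annotation are not stated. Estimated counts (fragments assigned to a locus in a library by Cuffdiff, per the file headers), as deposited by the authors, served only for depth.

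List symbols were matched to RefSeq (GRCh38.p14) by symbol and chromosome, or by an older symbol naming 1 gene of that chromosome. Of 8967 rows, 8251 matched directly, 477 by an older symbol and 239 not at all. Among the 128 genes these were 126, 1 and 1 (HNRNPU-AS1). Spans and neighbours used hg19 positions from the lists, promoter windows RefSeq, and transcripts GENCODE v29. Coordinates were never converted between builds. Counts and medians are descriptions, with no test, made with Python 3.11.15, pandas 2.3.3 and scipy 1.17.1. Functions were tested on simulated data and known cases. Genes, role lists and markers were chosen with earlier results of these data known. By rule, named genes were every low gene, the role-list genes on the high list, the 3 longest and 3 shortest spans, and the role-list genes with the highest and lowest CpG ratio. Other genes were named after their values were seen. Alternatives covered chromosomes, symbols, gene type, the width of the rule, length source and promoter window.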

Additional observations from a re-analysis of the deposited data

How the results depend on the processing

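The share of listed genes on the high list, 96.9%, was 95.5% with all chromosomes, 96.9% with current symbols, 97.6% with protein coding genes only and 97.5% with the other spliceosome subunits added. The share over all autosomal symbols, 52.4% (4381 of 8360), was 55.7% (4351 of 7805) for protein coding genes alone, as the symbols left out were mostly on the low list. The median promoter CpG ratio of the high genes was 0.918 with only the bases before the start. Among all listed starts, an alternative chosen after seeing the data, the highest ratio gave 0.955. For the low genes it was 0.262 from 1 gene, 0.313 with only the bases before the start. The high share over coding genes, 72.4%, was 72.7% without readthrough genes, also chosen afterwards, and RefSeq gene lengths gave a median of 20607 bases for high and 40816 for low genes.

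No paired analysis was possible because the results come from no test between libraries: the loci of the expression table carry no gene names. For the same reason no replicate was left out. The planned arginine-serine measure of proteins was not run, as no protein sequence was used here. With 4 low genes, no median or share among them is precise, and depth per gene is unknown.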

Other observations

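Rows with the same name stems on chromosome X lie outside the 128 genes. DDX3X, a helicase of translation initiation, HNRNPH2, RBM3, a cold-induced RNA-binding protein, and RBM10, a splicing regulator, were on the high list. DDX53, a single-exon cancer-testis helicase, was on the low list with a span of 2118 bases.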
